A study of Mus musculus with 3 samples.

Results

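Prostaglandins are lipid signals made from arachidonic acid, and 10 genes of their synthesis, breakdown, uptake and reception were followed in RNA from sorted lymphatic endothelium of the mouse colon. The genes were Ptgs1, Ptgs2, Ptges, Ptges2, Ptges3, Ptgis, Hpgd, Hpgds, Ptger4 and Slco2a1. They were found by gene symbol, and all 10 were among the 24091 genes listed in each library. All 3 libraries, numbered replicates 1 to 3, belong to 1 group, lymphatic endothelial cells of the large intestine of C57BL/6 mice. Cells were sorted from digested gut on lymphatic markers that include CD31, podoplanin and LYVE1, and the labels name no treatment, genotype, age or sex. Whether each library is a different animal is not given in the labels, and SDs and p-values below may measure technical spread only. Capillaries and collecting vessels, both named in the title of the series, were not separated. No conditions could be compared, and levels were set side by side between genes and between libraries.

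In this pathway, phospholipases free arachidonic acid from membranes and the cyclooxygenases, encoded by Ptgs1 and Ptgs2, turn it into the unstable intermediate PGH2. Terminal synthases then make PGE2, PGD2, prostacyclin or thromboxane, which leave the cell and act on G protein-coupled receptors nearby. The signal ends when the transporter encoded by Slco2a1 carries prostaglandin into a cell and the dehydrogenase encoded by Hpgd oxidises it. In the intestine PGE2 is known for its part in epithelial repair, and in lymphatic vessels prostanoids are known to alter contraction.

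Values are in TPM, a gene's share of the transcripts of a library, which is meant to correct for transcript length. The sources used here do not say how TPM was computed. Comparisons of level between genes therefore hold only if that correction suits these libraries. The marker genes fixed for the sort and for other cell types show what the RNA held. All 6 lymphatic endothelial markers were at or above 1 TPM throughout, but their summed level was 1453, 1524 and 808 TPM in replicates 1, 2 and 3, against 11712, 15531 and 15860 TPM for 7 colon epithelial markers. Fibroblast markers summed to 182, 124 and 448 TPM and macrophage markers to 239, 163 and 536 TPM, so replicate 3 was lowest for the lymphatic list and highest for these lists. Over the 12862 genes at a TPM of 1 or more in every library, the median absolute difference of log2(TPM + 1) was 0.12 between replicates 2 and 3, 0.24 between 1 and 2, and 0.27 between 1 and 3. A level below is therefore a level in the sorted material and is not assigned to lymphatic endothelium. In bulk RNA, fewer cells of a type and less RNA per cell cannot be told apart.

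In the sorted material, transcripts of Hpgd, the breakdown gene among the 10, were far more abundant than those of the cyclooxygenases, which catalyse the first committed step. The summed colon epithelial markers exceeded the lymphatic ones in every library, and the part of epithelium in the level of Hpgd was not tested. Hpgd, the NAD-dependent 15-hydroxyprostaglandin dehydrogenase that starts inactivation, averaged 129 ± 16.8 TPM (SD, n = 3), while Ptgs1 averaged 4.05 ± 2.91 TPM and Ptgs2 0.30 ± 0.366 TPM. A level of 1 TPM or more in every library was found for 9 of the 10, beside 53.4% of all listed genes, and Ptgs2 was the exception in all 3 libraries. The median of the 10 mean levels was 6.92 TPM, against 2.48 TPM over all listed genes and 17.0 TPM over those at a TPM of 1 or more in every library. The summed level of the 10 genes was 300.4 TPM in replicate 1, 309 TPM in replicate 2 and 340.4 TPM in replicate 3, and Hpgd, Ptges3 and Ptges2 made up 91.2%, 90.2% and 86.2% of it.

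**Figure D1:**
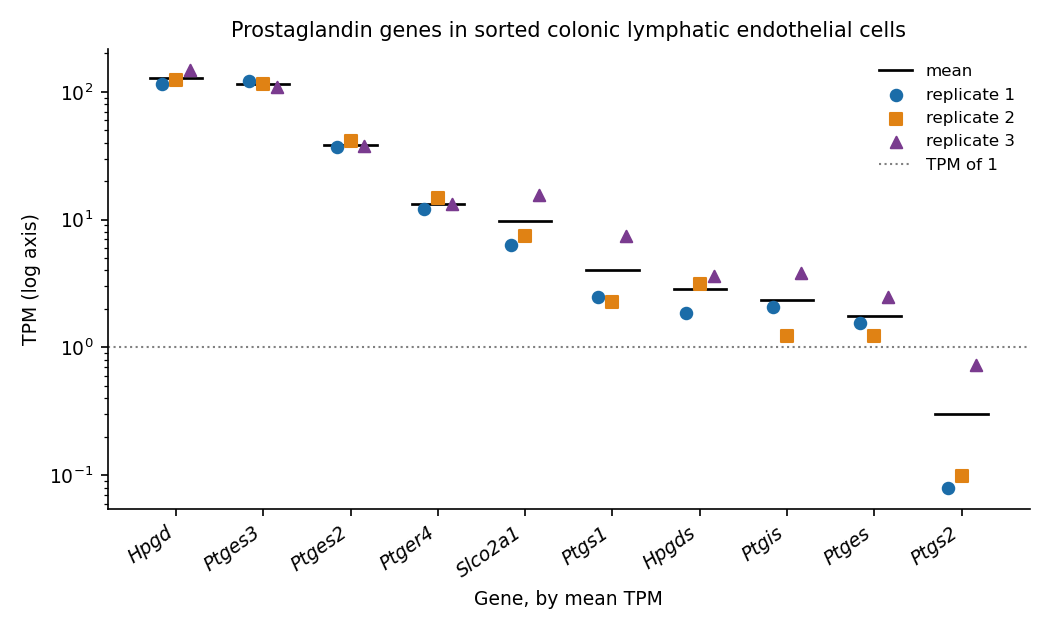
TPM of the 10 prostaglandin genes (log axis) in replicates 1, 2 and 3, ordered by mean, with a black bar at the mean of the 3 libraries and a dotted line at a TPM of 1. Hpgd and Ptges3 are the highest in every library, with means of 129 and 115 TPM, Ptgs2 lies below 1 TPM in every library, and replicate 3 is the highest library for Slco2a1, Ptgs1, Hpgds, Ptgis, Ptges and Ptgs2 as well as Hpgd.

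Cyclooxygenase transcripts were low, and both were highest in replicate 3. Ptgs1 (Entrez 19224, chromosome 2, 36216742 to 36258593), the constitutive isoform COX-1, had 2.50, 2.26 and 7.41 TPM in replicates 1, 2 and 3. Replicates 1 and 2 lay close together and replicate 3 stood 3.12-fold above their mean. Its mean lay at percentile 14.7 of the genes with a TPM of 1 or more in every library. Ptgs2 (Entrez 19225, chromosome 1, 150100031 to 150108234), the inducible isoform COX-2, had 0.0797, 0.0981 and 0.723 TPM. Steps in the low TPM values of single-transcript genes allowed a rough estimate of the fragments behind a value, and Ptgs2 rested on about 11, 12 and 80 fragments and Ptgs1 on about 216, 172 and 516. Ptgs2 was therefore detected in every library, on few fragments in replicates 1 and 2. Within each library Ptgs1 exceeded Ptgs2, by 31.3-fold, 23.0-fold and 10.3-fold in replicates 1, 2 and 3.

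The terminal synthases spanned a wide range of levels. Ptges3 (Entrez 56351, chromosome 10, 128058982 to 128077254) encodes p23, a co-chaperone of HSP90 that is also described as a cytosolic PGE synthase, and had 121, 115 and 108 TPM. The 3 libraries were close, with an SD of 5.71% of the mean. A processed pseudogene, Ptges3-ps, is annotated and was not in the table, so reads from it could have been counted for Ptges3. The paralog Ptges3l was listed on its own, at 9.04 ± 0.791 TPM (SD, n = 3).

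Ptges2 (Entrez 96979, chromosome 2, 32395890 to 32402740), a membrane-associated PGE synthase, had 37.1, 40.8 and 37.5 TPM, and its libraries were as close as those of Ptges3. Ptges (Entrez 64292, chromosome 2, 30889471 to 30931020), the microsomal PGE synthase that is induced together with COX-2 in inflammation, had 1.55, 1.24 and 2.47 TPM. Among the genes annotated as PGE synthases, the inducible one was thus the lowest in every library. Ptges2 exceeded Ptges by 24-fold, 33-fold and 15.2-fold, and Ptges3 exceeded Ptges2 by 3.28-fold, 2.81-fold and 2.89-fold, in replicates 1, 2 and 3.

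Hpgds (Entrez 54486, chromosome 6, 65117293 to 65144981), the haematopoietic PGD synthase, had 1.86, 3.15 and 3.65 TPM, with replicate 1 apart from the other 2. Ptgis (Entrez 19223, chromosome 2, 167203194 to 167252150), the cytochrome P450 that makes prostacyclin, had 2.06, 1.23 and 3.82 TPM, with replicate 3 the highest and replicate 2 the lowest. Ptgds, which encodes the other PGD synthase, had 0.252 TPM in replicate 1 and was listed at 0 in replicates 2 and 3. Tbxas1, the thromboxane synthase gene, averaged 1.64 ± 0.821 TPM and lay below Ptgis in every library. Fragments behind the low synthases were estimated at 173, 121 and 221 for Ptges, 198, 294 and 312 for Hpgds, and 128, 67 and 191 for Ptgis.

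The breakdown and uptake genes differed in how evenly they were measured. Hpgd (Entrez 15446, chromosome 8, 56294552 to 56321046) had 115, 123 and 148 TPM in replicates 1, 2 and 3, at percentile 91.5 of the genes at a TPM of 1 or more in every library. The highest library was 1.28-fold above the lowest. Slco2a1 (Entrez 24059, chromosome 9, 103007061 to 103096002), the prostaglandin transporter, had 6.29, 7.50 and 15.6 TPM, so replicate 3 stood 2.26-fold above the mean of the other 2. Ptger4 (Entrez 19219, chromosome 15, 5233399 to 5244187), which encodes the PGE2 receptor EP4, had 12, 14.8 and 13.2 TPM, with no library apart. No gene listed in the table overlapped any of the 10 genes by RefSeq extent. By the longer extents of GENCODE, the listed protein-coding gene Ttc33 overlaps Ptger4 on the opposite strand. GENCODE also annotates unlisted genes on the opposite strand that overlap Ptgs1, Ptgis, Slco2a1, Hpgds and Ptger4, and on the same strand within Hpgd, Slco2a1 and Ptges. The sources used here do not say whether counting used strand, so reads from overlapping genes could be included.

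By mean level the genes ran Hpgd, Ptges3, Ptges2, Ptger4, Slco2a1, Ptgs1, Hpgds, Ptgis, Ptges and Ptgs2. Neighbours were taken as apart where their within-library difference of log2(TPM + 1) had 1 sign in all 3 libraries and a mean above its SD. On this reading Ptges3 was apart from Ptges2, Ptges2 from Ptger4, Slco2a1 from Ptgs1, and Ptges from Ptgs2. The other 5 neighbouring pairs were not, since their sign differed between libraries. Hpgd lay below Ptges3 in replicate 1 and above it in replicates 2 and 3 (difference 0.16 ± 0.26, SD, n = 3). Ptger4 and Slco2a1 changed places in replicate 3, and neighbours among the low genes Ptgs1, Hpgds, Ptgis and Ptges were not apart, although Ptges lay below Hpgds in 3 of 3 libraries.

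The 8 pairs chosen for comparison set synthases and cyclooxygenases against each other, and breakdown, uptake, synthesis and reception against one another. Hpgd exceeded Ptgs1 by 4.82 ± 0.59 on the log2(TPM + 1) scale (SD, n = 3), with 5.06, 5.25 and 4.14 in replicates 1, 2 and 3. Hpgd also exceeded Slco2a1, the carrier that delivers its substrate, by 3.68 ± 0.45. The difference was 3.87 ± 0.38 for Ptges2 minus Ptges, 1.55 ± 0.12 for Ptges3 minus Ptges2 and 1.85 ± 0.38 for Ptgs1 minus Ptgs2. All 5 were above 0 in 3 of 3 libraries and larger than their SD. Ptges minus Hpgds was -0.50 ± 0.37, below 0 in 3 of 3 libraries. Ptges minus Ptgis (-0.25 ± 0.24) and Ptger4 minus Slco2a1 (0.50 ± 0.63) differed in sign between libraries, so no order was found for them.

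Signs were flipped over libraries in an exact permutation test (two-sided), which gave p = 0.25 for each of the 6 pairs of constant sign. This is the smallest p possible with 3 libraries, and Benjamini-Hochberg adjustment of the exact p over the 8 pairs gave 0.333. The same exact permutation test gave p = 0.5 before and after adjustment for Ptges minus Ptgis and for Ptger4 minus Slco2a1. No pair could therefore pass a threshold of 0.05 in this design. The pseudocount of 1 understates differences that involve low genes such as Ptgs2.

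**Figure D2:**
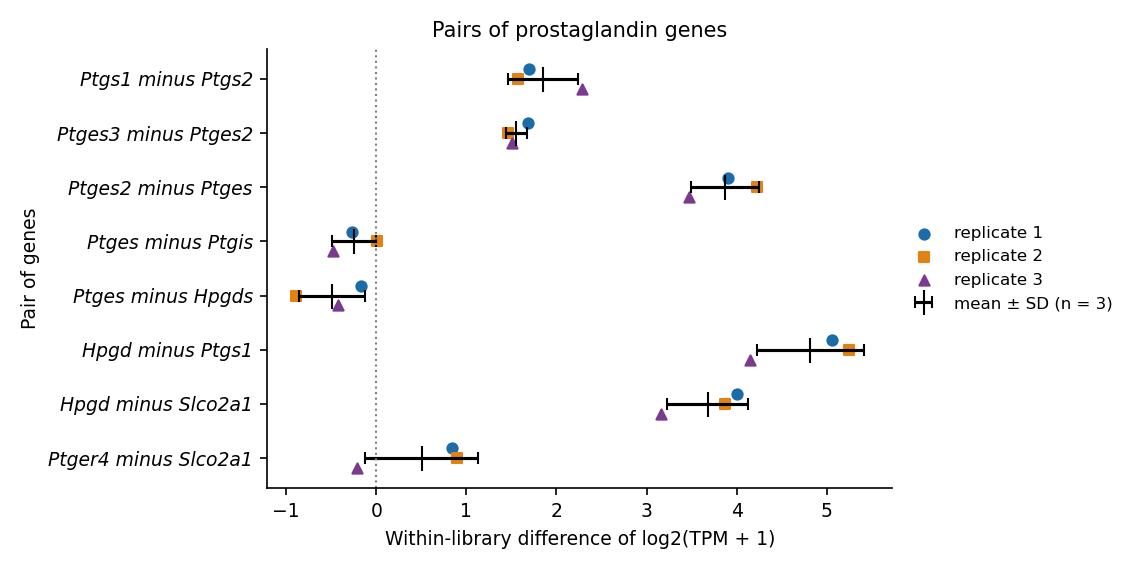
Within-library difference of log2(TPM + 1) for 8 pairs of prostaglandin genes, with points for replicates 1, 2 and 3 and a black bar for the mean ± SD (n = 3). Hpgd minus Ptgs1 is the largest at 4.82, and the points of Ptger4 minus Slco2a1 and of Ptges minus Ptgis lie on both sides of 0.

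Below Ptger4 in the order of levels the behaviour across libraries changed, with even values for the abundant genes and uneven ones for the rest. Counting genes whose (TPM + 1) in the highest library was 1.5-fold or more above that in the lowest, 5 of the 9 genes with a mean TPM of 1 or more passed, beside 24.5% of all genes with such a mean. These were Ptgs1 (2.58-fold), Slco2a1 (2.27-fold), Ptgis (2.16-fold), Hpgds (1.62-fold) and Ptges (1.55-fold). Under median-of-ratios scaling 4 passed, beside 18.7% of all genes, and Hpgds did not. Hpgd, Ptger4, Ptges3 and Ptges2 did not pass, at 1.28-fold, 1.21-fold, 1.12-fold and 1.10-fold, and the median over all genes with such a mean was 1.29-fold. Without replicate 3 none of the 9 passed, beside 14.1% of all genes.

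All 5 genes that passed had their highest value in replicate 3, and 14.1% of all genes with such a mean both passed and were highest there. In all, 6 of the 9 genes were highest there, beside 41.3% of all genes with a mean TPM of 1 or more, and Ptgs2 was too. In TPM, replicate 3 stood above the mean of replicates 1 and 2 by 8.13-fold for Ptgs2, 3.12-fold for Ptgs1, 2.32-fold for Ptgis, 2.26-fold for Slco2a1, 1.77-fold for Ptges, 1.46-fold for Hpgds and 1.24-fold for Hpgd. Replicate 3 was singled out after its values were seen, so these folds describe the library and were not tested.

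Several marker lists moved with these genes. In replicate 3 the summed level was 2.93-fold the mean of the other 2 for fibroblast markers, 2.66-fold for macrophage markers and 2.03-fold for smooth muscle and pericyte markers, and each of the 7, 7 and 6 genes of these lists was highest there. It was 0.543-fold for the lymphatic endothelial list, of which all 6 genes were lowest in replicate 3. Of the 6 blood endothelial markers, 3 were highest in replicate 3 and 3 were lowest there. Mesothelial markers summed to 1.33, 0.111 and 2.17 TPM, and none of the 4 was at 1 TPM or more throughout. The part of these cell types in the levels of Ptgs1, Ptgs2, Ptgis, Ptges, Hpgds and Slco2a1 was not tested.

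Tuft cells, a rare chemosensory epithelial type, are known to express Ptgs1 and Hpgds, and mast cells are known to express Hpgds. Of the 7 tuft cell markers listed, 3 were at 1 TPM or more in every library, and the list summed to 10.9, 17.4 and 8.12 TPM. Of the 7, 6 were lowest in replicate 3, where Ptgs1 and Hpgds were highest, and Il25 was highest there at 0.351 TPM. Between replicates 1 and 2, Hpgds rose with the list, from 1.86 to 3.15 TPM, while Ptgs1 did not, at 2.50 and 2.26 TPM. The part of tuft cells in the levels of Ptgs1 and Hpgds was not tested. Among the 9 mast cell markers Fcer1a was listed at 0 in every library, and Cpa3, Mcpt1, Mcpt2, Mcpt4, Tpsb2 and Ms4a2 had means between 0.0163 and 0.321 TPM. Kit (19.2 ± 2.77 TPM) and Cma1 (6.18 ± 1.24 TPM) were the mast cell markers at 1 TPM or more throughout. The list summed to 25, 24.4 and 28.3 TPM, nearly all of it from these 2 genes.

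**Figure D3:**
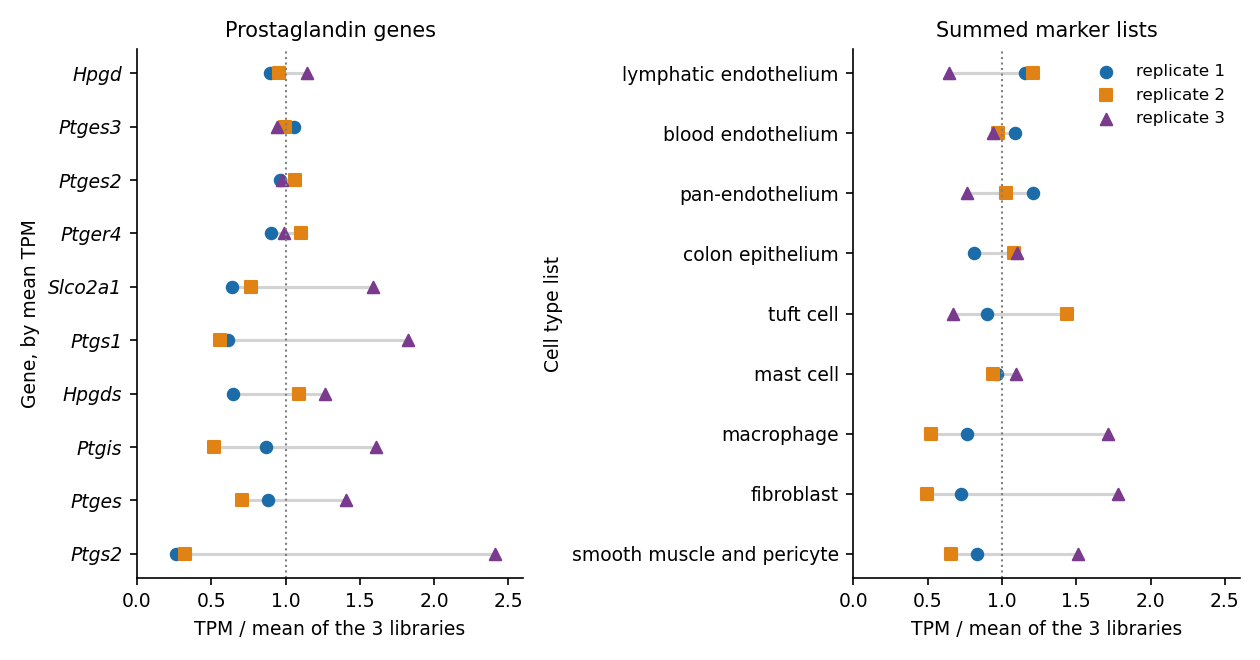
TPM of each prostaglandin gene (left) and summed TPM of each marker list (right) divided by the mean of the 3 libraries, with points for replicates 1, 2 and 3 and a dotted line at the mean; the mesothelial list is not drawn. Replicate 3 lies to the right for Slco2a1, Ptgs1, Ptgis, Ptges and Ptgs2 and for the macrophage, fibroblast and smooth muscle lists, and to the left for the lymphatic, pan-endothelial and tuft cell lists.

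The promoter windows of RefSeq (GRCm38.p6, the assembly of mm10) are shown for the genes highest in replicate 3 by the widest margins and for Hpgd, the most abundant gene. Windows were held for 9 of the 10 genes, and Ptgis had none. Each runs 5′ to 3′ on the gene's strand from 250 bases before an annotated transcript start to 50 bases after it. For Ptgs2 and Hpgd this start is the first base of the gene's extent given above, whereas for Ptgs1 (36230426) and Slco2a1 (103008487) it is the start of a transcript inside the extent, so the sequence before the outermost start was not examined. Capitals mark matches on either strand to the TATA box (letters TATAAA), the GC box (letters GGGCGG), the E-box (letters CACGTG) and the core of the cyclic AMP response element (letters ACGTCA).
Slco2a1 (chr9:103008237-103008536, + strand): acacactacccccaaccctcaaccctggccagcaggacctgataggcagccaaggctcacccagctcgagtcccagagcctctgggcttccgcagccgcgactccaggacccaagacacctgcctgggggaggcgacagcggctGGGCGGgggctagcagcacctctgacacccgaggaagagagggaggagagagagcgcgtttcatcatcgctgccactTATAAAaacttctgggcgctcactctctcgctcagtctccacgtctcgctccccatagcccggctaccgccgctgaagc
Ptgs1 (chr2:36230176-36230475, + strand): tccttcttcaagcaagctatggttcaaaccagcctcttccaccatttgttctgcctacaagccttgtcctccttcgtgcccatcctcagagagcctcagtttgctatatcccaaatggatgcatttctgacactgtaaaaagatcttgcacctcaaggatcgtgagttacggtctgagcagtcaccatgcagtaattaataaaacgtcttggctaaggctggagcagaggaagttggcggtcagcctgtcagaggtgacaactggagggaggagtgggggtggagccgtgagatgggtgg
Ptgs2 (chr1:150099781-150100080, + strand): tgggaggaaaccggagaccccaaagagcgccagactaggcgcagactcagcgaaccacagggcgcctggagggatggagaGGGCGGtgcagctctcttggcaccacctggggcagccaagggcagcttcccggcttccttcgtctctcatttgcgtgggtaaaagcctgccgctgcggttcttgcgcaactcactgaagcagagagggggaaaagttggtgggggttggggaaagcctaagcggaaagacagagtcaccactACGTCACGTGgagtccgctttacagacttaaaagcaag
Hpgd (chr8:56294302-56294601, + strand): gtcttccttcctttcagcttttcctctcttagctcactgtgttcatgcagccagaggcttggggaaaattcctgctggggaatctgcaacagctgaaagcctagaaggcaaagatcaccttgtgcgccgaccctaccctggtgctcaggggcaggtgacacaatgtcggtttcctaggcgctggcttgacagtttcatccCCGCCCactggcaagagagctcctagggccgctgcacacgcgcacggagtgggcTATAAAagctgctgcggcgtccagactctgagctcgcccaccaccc

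These windows differed in their sequence matches. The window of Slco2a1 held TATAAA with its first base at position -29, counted from the start of its window's transcript, and a GC box. Hpgd held TATAAA at position 5, just after the annotated start, and a GC box on the opposite strand. Ptgs2 held ACGTCA at position 13 and CACGTG at position 17, which overlap, and a GC box at -170. All positions count from annotated starts, and where transcription begins in these cells was not measured. The window of Ptgs1, at its internal start, held none of the 4 motifs. Among 32851 RefSeq windows of 300 bases, 13.6% held TATAAA, 35.7% GGGCGG, 7.15% CACGTG and 7.51% ACGTCA. The GC content was 64.0% for Slco2a1, 59.3% for Ptgs2, 58.0% for Hpgd and 50.7% for Ptgs1, against a median of 52.7% over all windows. A match describes the letters only. The windows of Slco2a1 and Ptgs2 both held a GC box, and since that of Ptgs1 held no motif, none could be shared by all 3.

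Around the 10 genes, 33 further genes of prostanoid and leukotriene metabolism were followed. All 33 were listed, and 22 of them, or 66.7%, were at 1 TPM or more throughout, against the 53.4% of all listed genes given above. Their median of mean levels was 5.61 TPM, beside 6.92 TPM for the 10. The highest library was 1.5-fold or more above the lowest for 8 of the 26 with a mean TPM of 1 or more, beside the 24.5% given above.

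Of the 9 genes listed for the release of arachidonic acid, 8 were at a TPM of 1 or more in every library, beside 53.4% of all listed genes. These 9 are a chosen list, and the count describes them only. Pla2g10, a secreted phospholipase A2, led with 182, 168 and 186 TPM, above the level of Hpgd in every library. Pla2g12a (28.5 ± 5.50 TPM) and Pla2g4a (27.9 ± 3.30 TPM), the cytosolic enzyme that most often feeds the cyclooxygenases, followed. Pla2g4c had 15.3, 13.8 and 29.2 TPM and was thus uneven in the same direction as Ptgs1. Pla2g5 (15.2 ± 0.424 TPM), Pla2g2a (10.6 ± 2.12 TPM), Pla2g6 (5.92 ± 0.267 TPM) and Pla2g4f (5.61 ± 1.72 TPM) were lower, and Pla2g4b stayed below 0.128 TPM. Pla2g2a carries a natural frameshift in C57BL/6 mice.

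Reductases and other synthases included the highest transcript of the pathway. Cbr1, a carbonyl reductase that can convert PGE2 to PGF2α, had 341, 345 and 388 TPM. Akr1b3, an aldose reductase with PGF synthase activity, averaged 118 ± 6.59 TPM and Fam213b (also named Prxl2b), another PGF synthase gene, 42.6 ± 4.70 TPM. Ptgr2 (40.1 ± 6.81 TPM) and Ptgr1 (21.9 ± 0.549 TPM) encode reductases that act on the keto product of Hpgd. The step downstream of Hpgd thus had transcripts in every library. Akr1c18 (1.88 ± 1.16 TPM) lay below a TPM of 1 in replicate 1 and Tbxas1 in replicate 2.

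Of the 8 receptor genes other than Ptger4, 3 stood at 1 TPM or more throughout, beside 53.4% of all listed genes. Ptger1, the gene of the PGE2 receptor EP1, had 14.4, 21.1 and 22.6 TPM, above Ptger4 in every library. Tbxa2r, the thromboxane receptor gene, averaged 5.42 ± 0.629 TPM and Ptger3 (EP3) 2.26 ± 0.615 TPM. Ptger2 (EP2) averaged 1.47 ± 0.481 TPM and lay below 1 TPM in replicate 3. The prostacyclin receptor gene Ptgir (0.325 ± 0.222 TPM), the PGF receptor gene Ptgfr (0.241 ± 0.131 TPM) and the PGD2 receptor genes Ptgdr2 (0.0510 ± 0.0443 TPM) and Ptgdr (0.0122 ± 0.0130 TPM) were near 0. The 2 most abundant receptor transcripts, Ptger4 included, were thus those of PGE2 receptors. Abcc4, the exporter of prostaglandins, averaged 5.44 ± 1.04 TPM.

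In the leukotriene and lipoxygenase branch, 5 of 7 genes passed 1 TPM in every library, beside 53.4% of all listed genes. Lta4h, the leukotriene A4 hydrolase gene, led at 101 ± 7.26 TPM. Ltc4s averaged 16 ± 0.385 TPM and Alox5ap, which encodes the activating protein of 5-lipoxygenase, 9.35 ± 3.02 TPM. Alox5 itself averaged 2.98 ± 0.480 TPM, and in replicates 1 and 2 it lay just above Ptgs1, at 2.61 and 2.81 TPM. Alox12e (2.16 ± 1.09 TPM), Alox12 (1.5 ± 0.702 TPM) and Alox15 (0.983 ± 0.735 TPM) were the lowest, and Alox12e was lowest in replicate 3 while Alox12 and Alox15 were highest there.

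**Figure D4:**
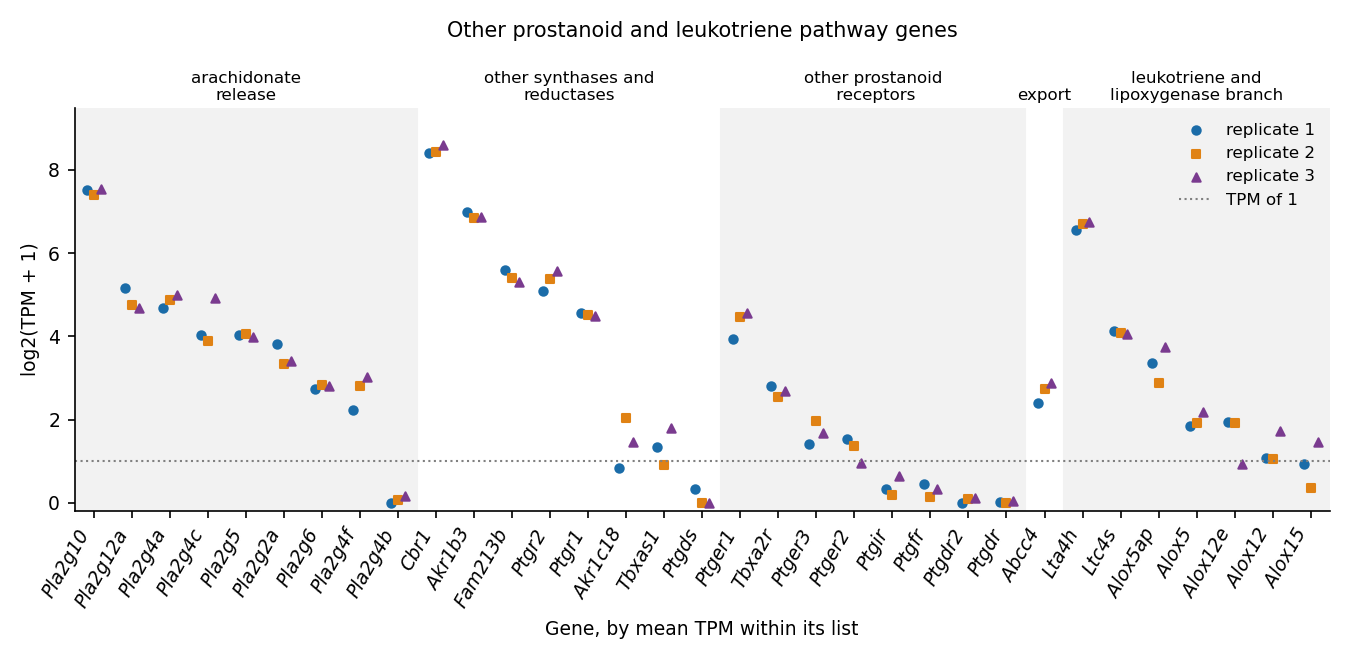
Level of 33 further prostanoid and leukotriene pathway genes as log2(TPM + 1) in replicates 1, 2 and 3, grouped by step and ordered by mean within a group, with a dotted line at a TPM of 1. Cbr1, Pla2g10, Akr1b3 and Lta4h lie above 90 TPM in every library, while Ptgds, Ptgir, Ptgfr, Ptgdr2 and Ptgdr lie below 1 TPM.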

How the data were processed

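Bulk RNA-seq libraries of 3 samples of sorted lymphatic endothelial cells were used. Per the file headers the deposited values are TPM, 1 per gene, identified by Entrez ID and symbol. The submitters' processing notes name mm10, Cell Ranger 6.0.1 and HTSeq without saying how the authors computed TPM; the annotation is not given in the sources used here. The genes and lists were chosen with earlier results of these data known. All 10 genes and the pathway genes with a mean TPM of 1 or more are named, others by count or where low. Coordinates and promoters are from RefSeq GRCm38.p6, matched by Entrez ID (10 of 10).

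Pairs were compared as log2(TPM + 1) within a library, by an exact permutation test (two-sided) that flips signs over libraries. TPM keeps no depth; from the steps of low values of 11029 genes with 1 RefSeq transcript of over 1000 bases, the fragments per 1 TPM and 1000 effective bases were put at about 32.6, 28.4 and 25.9 for replicates 1, 2 and 3. The mean phase score of the steps was 0.522, 0.489 and 0.549, against 0.0456, 0.0676 and 0.0826 with shuffled lengths. The steps were tested on simulated data. Alternatives were other pseudocounts, thresholds and scalings, and leaving out each replicate. Software was matplotlib 3.10.9, pandas 2.3.3 and numpy 2.4.6 under Python 3.11.15.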

Additional observations from a re-analysis of the deposited data

How the results depend on the processing

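All 8 pair differences kept their sign under a pseudocount of 0.1, under none, under rescaling without 86 ribosomal protein genes and Mir6236, and without each replicate. Ptger4 minus Slco2a1 ranged from 0.31 to 0.87 and Ptges minus Ptgis from -0.37 to -0.13 when 1 replicate was left out. Rescaling multiplies all remaining genes of a library by the same factor, so the mean TPM rose for all 10 genes. The rise exceeded the SD for Hpgd (171), Ptges3 (153), Ptges2 (51.3), Ptger4 (17.8) and Hpgds (3.83). These have the smallest SDs relative to their means, so this is not a sensitivity particular to them. At a TPM of 5 in every library, 5 of the 10 genes passed in place of 9. The share of all listed genes past this higher threshold was not computed, so the drop is not read as particular to these genes. A fold of 2 in place of 1.5 gave 3 uneven genes (Ptgs1, Ptgis and Slco2a1) in place of 5, beside 7% of all genes. Median-of-ratios scaling gave 4 (without Hpgds), beside 18.7% of all genes. Leaving out replicate 1 gave 4, beside 8.15% of all genes, and leaving out replicate 2 gave 4, beside 18.8%. Leaving out replicate 3 gave 0, beside 14.1%. Without replicate 3 the mean of Ptgs1 was 2.38 TPM and that of Ptgs2 0.0889 TPM. Values of Ptgs2 rest on few fragments. No comparison between conditions, paired or not, was possible because the series has 1 group.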
